A study of Mus musculus with 3 samples.

Results

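The genes described here run the mechanics of cell division: the kinases, spindle motors, kinetochore and condensin subunits, cytokinesis proteins and checkpoint proteins that carry a cell through mitosis, with transcription factors that drive their expression. They were chosen by name as 50 mouse genes, through every probe set whose platform annotation named exactly 1 of them. Of the 50 genes, 48 had such a probe set, 90 probe sets in all, among 12393 genes on the array. Espl1 and Cdca8 were not analysed here. The samples were 3 mammary tumours of female NMRI mice carrying the WAP-SVT/t transgene, 1 array each, called tumours 1, 2 and 3 in accession order. In this model the promoter of the whey acidic protein gene Wap drives simian virus 40 tumour antigens, large T with small t, in mammary epithelium. The series was made to set such mouse tumours against human breast tumours. All 3 samples carried the transgene and no normal gland stood beside them, so the values compare tumours with each other, and with 1 array per tumour no difference has a replicate check or a p-value. The titles of tumours 1 and 2 begin with a common number, and that of tumour 3 with a different one. The sources used here do not say what it marks or whether any tumours came from the same mouse, so an SD over the tumours may rest on related samples.

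Mitosis is set up by transcription that peaks in G2 phase. Large T antigen binds the retinoblastoma family proteins that hold E2F target genes silent in resting cells, and many mitotic genes are silenced by a related complex called DREAM. The same genes are switched on in G2 by B-MYB and FOXM1, both of which act through the MuvB core of that complex at a short promoter element called CHR, often next to CCAAT boxes bound by NF-Y. Cyclin B with Cdk1 then starts mitosis, Aurora and Polo kinases build the spindle, and the spindle checkpoint holds the anaphase promoting complex off until every kinetochore is attached. In human breast tumours these genes are widely used as markers of the share of dividing cells.

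The promoters of these genes carry the letters of the CHR element far more often than promoters at large, and 6 well-known mitotic genes, chosen by name, are shown so that the element can be seen. Each line gives the 120 bases just upstream of the RefSeq start, read 5′ to 3′ on the gene's strand in build GRCm38.p6. Capitals mark CHR, spelled TTTGAA on the strand shown or as its reverse complement TTCAAA when it lies on the other strand, and the CCAAT box, which reads ATTGG when it lies on the other strand. The stretches lie at chr4:118437344-118437463 (minus strand) for Cdc20, chr7:122159315-122159434 (plus strand) for Plk1 and chr2:172370571-172370690 (minus strand) for Aurka. Those of the other genes lie at chr2:164769809-164769928 (plus strand) for Ube2c, chr11:99024190-99024309 (minus strand) for Top2a and chr11:117849117-117849236 (plus strand) for Birc5.
Cdc20: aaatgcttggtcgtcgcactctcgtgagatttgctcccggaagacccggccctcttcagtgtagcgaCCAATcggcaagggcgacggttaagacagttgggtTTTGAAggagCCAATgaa
Plk1: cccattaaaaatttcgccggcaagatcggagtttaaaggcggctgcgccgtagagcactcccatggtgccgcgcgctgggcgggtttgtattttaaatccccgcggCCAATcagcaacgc
Aurka: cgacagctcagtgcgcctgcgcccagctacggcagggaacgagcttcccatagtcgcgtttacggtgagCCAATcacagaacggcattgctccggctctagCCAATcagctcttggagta
Ube2c: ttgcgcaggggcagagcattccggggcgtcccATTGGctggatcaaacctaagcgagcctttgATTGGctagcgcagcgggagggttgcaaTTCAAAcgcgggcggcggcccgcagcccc
Top2a: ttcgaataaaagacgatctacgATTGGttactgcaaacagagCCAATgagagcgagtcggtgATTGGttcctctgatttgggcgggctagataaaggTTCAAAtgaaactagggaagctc
Birc5: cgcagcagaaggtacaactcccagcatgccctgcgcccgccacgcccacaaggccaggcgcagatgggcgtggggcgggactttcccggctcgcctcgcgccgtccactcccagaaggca
Cdc20, Ube2c and Top2a hold both elements upstream of the start. In Plk1 and Aurka CCAAT lies upstream, while CHR begins at base 31 and base 33 downstream of the start, outside the stretch shown. The Birc5 promoter entry holds neither sequence in the whole window that was searched, 250 bases upstream to 50 downstream.

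RefSeq promoter entries were found for 43 of the 50 genes. CHR was present in 30 of these (69.8%), against 20.2% of the 27025 genes in the promoter table and 13.9% of the 5698 genes of that table that passed the low-signal floor on the array. CCAAT was present in 30 of 43 (69.8%), against 42.9% of the array genes past the floor, and both elements stood together in 26 of 43 (60.5%) against 6.86%. An E2F site, searched on both strands as the letters TTCCCGC and also in the second form TTGGCGC, was found in 7 of 43 (16.3%), against 7.79% of the genes in the promoter table and 15.3% of the array genes past the floor. A CCAAT box on the other strand can share bases with the second E2F form, and such a promoter counts for both. The CHR match also had a preferred place. Of 42 CHR matches in the members' promoters, 31 (73.8%) began no further than 60 bases upstream of the start or downstream of it, against 28.2% of the 6737 matches in all promoters. Matches are runs of letters and were not shown here to be bound.

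**Figure D1:**
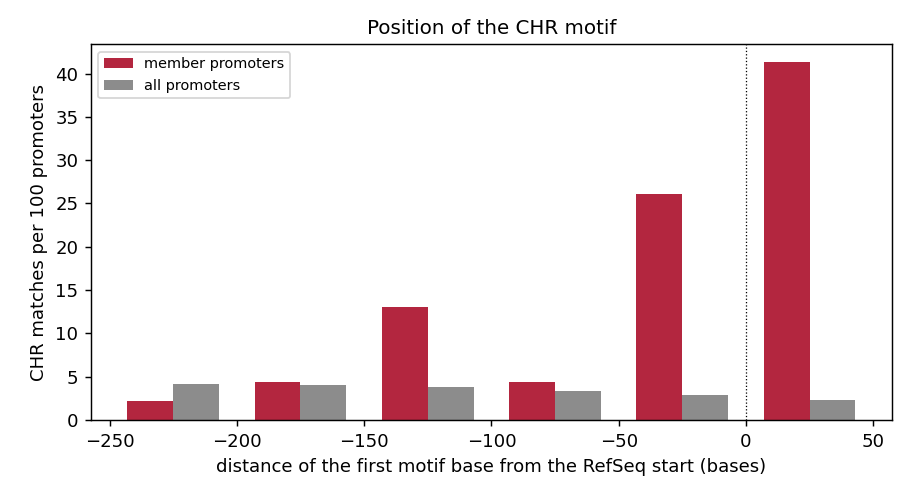
CHR matches per 100 promoters (vertical axis) by the distance of their first base from the RefSeq start in bins of 50 bases (horizontal axis, bases), for the members' 46 promoter entries (red) and all 32851 entries (grey). The members reach 26.1 and 41.3 matches per 100 promoters in the bins just before and just after the start, where all promoters have 2.88 and 2.30.

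Intensities below are the deposited values. Levels are log2(intensity + 50) after quantile normalization, every difference or fold is on that scale, and such folds understate the change of dim genes. Each gene is represented by its brightest probe set, and levels are compared between tumours within a gene, never between genes. A gene passed the low-signal floor when its mean level reached 7.40, the median of all probe sets (an intensity of 119). Of the 48 genes measured, 47 passed it. Cenpe, the kinesin-like motor of the kinetochore, stayed below, with an intensity of 135 in tumour 1 and of 94 in both others. Nuf2 passed only through its value in tumour 3.

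By the brightest probe sets, tumour 3 most often had the highest level of a mitotic gene and tumour 2 the lowest. Both happened more often than for genes at large. The lead of tumour 3 over tumour 1 in that count did not hold with a type of probe set left out, as given below. Of the 47 genes past the floor, 28 were highest in tumour 3, where 30.2% of all 6951 genes past the floor were, 15 were highest in tumour 1 (30.6% of all genes) and 4 in tumour 2 (39.2% of all genes). Tumour 2 was lowest for 27 of them (27.1% of all genes), tumour 1 for 14 (28.8%) and tumour 3 for 6 (44.1%). The order tumour 3, tumour 1, tumour 2 from high to low held for 16 members and 15.2% of all genes. The order tumour 3, tumour 2, tumour 1 held for 12 (15% of all genes), and 11 ran from tumour 1 at the top to tumour 2 at the bottom (11.9%). Orders rest on normalized levels and can differ from the intensities where tumours lie close, as for Kif11, Kif23, Kif2c, Kif4 and Ncapd2 at the low end and Hmmr and Spc25 at the high end. With the values as deposited, and no quantile normalization, tumour 2 was lowest for 22 members and tumour 3 highest for 28.

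The median member was 0.39 (log2) higher in tumour 3 than in tumour 2, while the median of all genes was -0.14 in the same direction, and 39 of 47 members were higher in tumour 3 (42.0% of all genes). Tumour 3 was at least 1.5-fold above tumour 2 for 17 members (14.8% of all genes) and at least 1.5-fold below it for 0 (24.8% of all genes). Against tumour 1 the median member was 0.33 higher in tumour 3, with all genes at -0.09, and 30 of 47 were higher (43.9% of all genes). Which of these medians is larger depends on the scaling, since with the values as deposited tumour 3 exceeded tumour 1 by 0.41 and tumour 2 by 0.33. That median did not hold with one type of probe set left out, as given below. Here 13 members were at least 1.5-fold higher (13.4% of all genes) and 2, Plk1 and Mybl2, at least 1.5-fold lower (20.8%). Between tumours 2 and 1 the median member differed by -0.12 (tumour 2 lower), with all genes at 0.05, and 16 of 47 were higher in tumour 2 (54% of all genes). Tumour 2 was at least 1.5-fold below tumour 1 for 8 members (12.1% of all genes) and above it for 1, Anln (14.1%). These 3 comparisons share arrays and are not independent. In RNA from whole tumours, fewer dividing cells and less of a transcript per cell cannot be told apart.

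**Figure D2:**
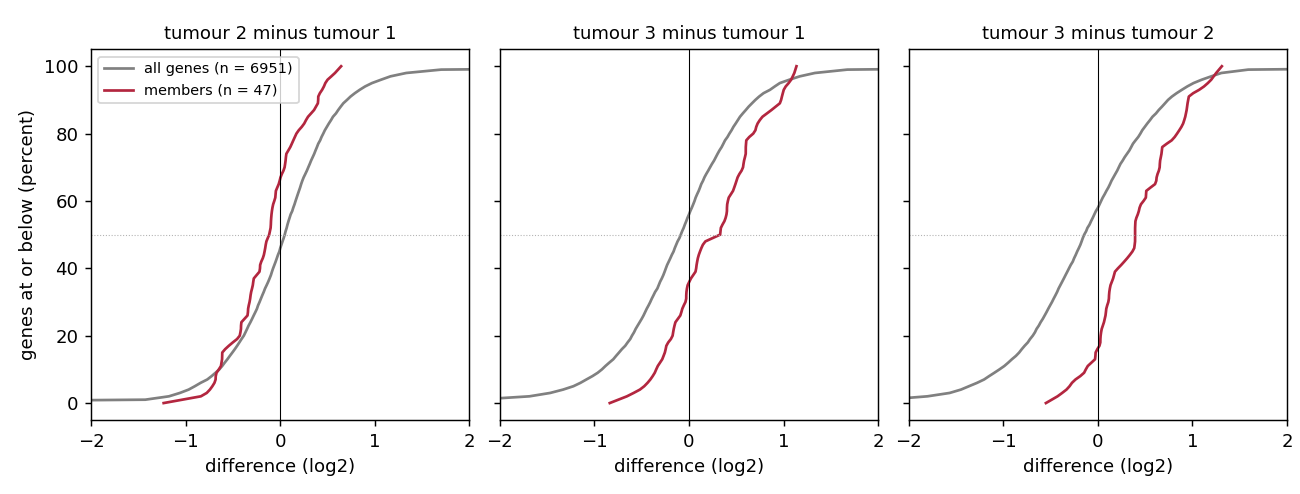
Cumulative share of genes (vertical axis, percent) by the log2 difference between 2 tumours (horizontal axis), for the 47 members past the floor (red) and all 6951 genes past it (grey), with 1 panel per pair of tumours. Over most of its length the members' curve lies to the right of all genes in both panels with tumour 3, where their medians are 0.33 and 0.39, and to the left in the panel of tumours 2 and 1, where it is -0.12.

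The members nevertheless differed no more widely than other genes. Their median range over the tumours was 0.60 (log2), or 1.52-fold, beside 0.66 for all genes, and 9 of 47 differed at least 2-fold between their highest and lowest tumour (24.8% of all genes did). Those 9 were Racgap1, Pttg1, Mybl2, Kif22, Cdc20, Smc2, Nek2, Ect2 and Nuf2. All but Mybl2 were highest in tumour 3. At the other end, Hmmr, Spc25 and Nusap1 differed at most 1.08-fold over the 3 tumours by their brightest probe sets, although further probe sets of Hmmr differed more.

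**Figure D3:**
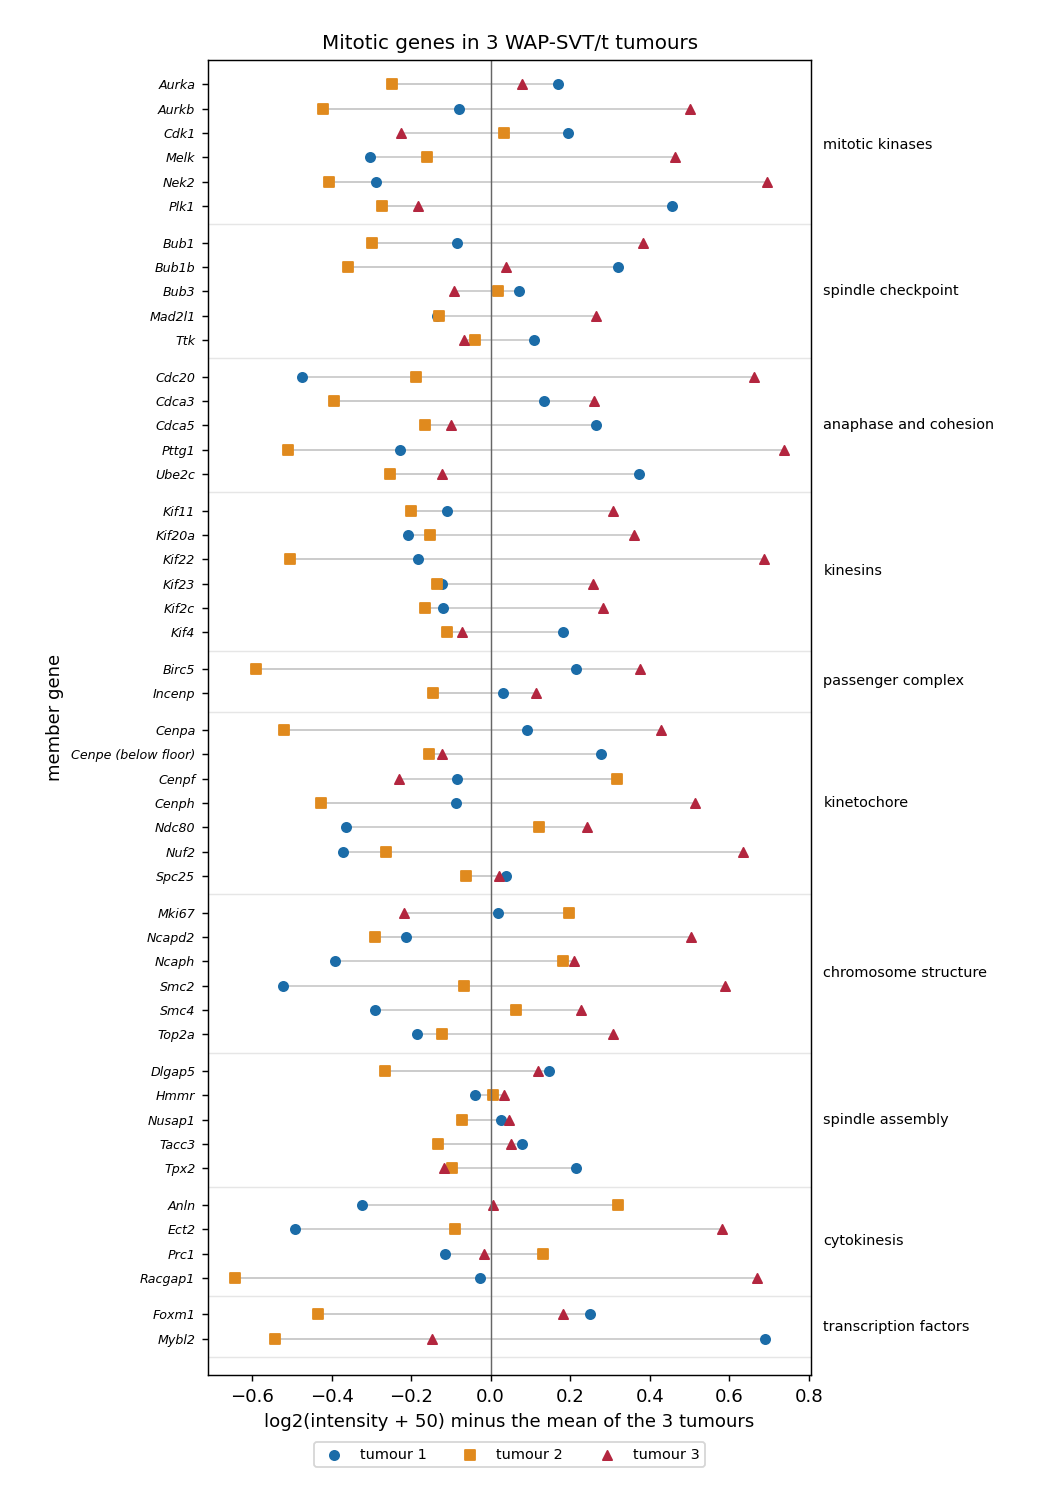
Distance of each tumour's level from its gene's mean (horizontal axis, log2(intensity + 50) after quantile normalization) for the 48 measured genes (vertical axis), grouped by role, with circles for tumour 1, squares for tumour 2 and triangles for tumour 3. Triangles lie at the right end for 28 of the 47 genes past the floor and squares at the left end for 27. Foxm1 and Mybl2 at the bottom have tumour 1 at the right.

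Among the mitotic kinases, tumour 3 was at the top for 3 of 6 and tumour 1 for the others, and 4 had tumour 2 at the bottom. Intensities follow in the order of tumours 1, 2 and 3. Nek2, a kinase that splits the paired centrosomes, had 138, 133 and 324 and was 2.15-fold higher in tumour 3 than in tumour 2. Aurkb, the Aurora kinase of the chromosomal passenger complex, had 420, 346 and 667 (1.90-fold from tumour 2 to tumour 3). Melk, a kinase expressed in dividing progenitor cells, had 457, 547 and 847, so tumours 1 and 2 lay close together below tumour 3. Plk1, the Polo kinase that drives centrosome maturation and mitotic entry, ran differently, with 768, 480 and 487. Here tumour 1 stood alone, 1.66-fold above tumour 2. Aurka, the Aurora kinase of the spindle poles, had 567, 442 and 539, a 1.33-fold range with tumour 2 lowest. Cdk1, the catalytic partner of cyclin B, had 2758, 2501 and 2239 and was the only 1 of these kinases with tumour 3 lowest, 1.34-fold under tumour 1.

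None of the 5 spindle checkpoint genes reached a 2-fold range, and they did not share an order. Bub1, a kinase that recruits checkpoint proteins to kinetochores, had 447, 410 and 651 and was highest in tumour 3. Mad2l1, the protein that sequesters Cdc20, had 1449, 1499 and 2096, with tumours 1 and 2 near each other and tumour 3 1.32-fold above tumour 1. Bub1b, the BubR1 subunit of the checkpoint complex, had 700, 450 and 579 and was highest in tumour 1. Ttk, the Mps1 kinase at the top of the pathway, had 489, 471 and 436, and Bub3, the scaffold of the Bub proteins, had 1367, 1366 and 1297. Both of these were within 1.13-fold over the tumours, and their lowest level was in tumour 3.

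Of the genes for anaphase and sister chromatid cohesion, 5 of 5 were higher in tumour 3 than in tumour 2 and 4 were lowest in tumour 2. For Cdca5 that difference was only 0.06 (log2), 0.002 with the values as deposited, and -0.11 by a second probe set. Pttg1, or securin, the inhibitor of the protease that cuts cohesin, had 1212, 1037 and 2653, a level 2.37-fold higher in tumour 3 than in tumour 2. Cdc20, the activator of the anaphase promoting complex, had 1424, 1770 and 3512, and was 2.20-fold higher in tumour 3 than in tumour 1. By the brightest probe sets of both genes tumour 3 stood apart and the other tumours lay within 1.22-fold. A second Pttg1 probe set above the floor, with 591, 292 and 1026, also had tumour 3 highest. By that probe set tumour 2 lay further below tumour 1 than by the brightest. A plain Pttg1 probe set below the floor, with 132, 81 and 96, had tumour 1 highest. Ube2c, the ubiquitin-conjugating enzyme of the anaphase promoting complex, had 2128, 1403 and 1599, highest in tumour 1. Cdca5, or sororin, which keeps sister chromatids together, had 847, 659 and 660 and was likewise highest in tumour 1. Cdca3, which promotes mitotic entry, had 818, 590 and 942, lowest in tumour 2.

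Among the kinesins, 5 of 6 were highest in tumour 3 and 6 of 6 were higher there than in tumour 2, although Kif4 changed sign in that comparison with the values as deposited and with array medians subtracted. Kif22, a motor that pushes chromosome arms outward, had 904, 762 and 1819 and was 2.28-fold higher in tumour 3 than in tumour 2. Kif11, the motor that separates the spindle poles, had 428, 431 and 601. Kif20a, needed for cytokinesis, had 362, 409 and 571. Kif23, the motor of the centralspindlin complex, had 409, 436 and 559, and Kif2c, which depolymerises microtubules at centromeres, had 572, 588 and 801. By the brightest probe sets of these 4 genes tumours 1 and 2 were within 1.07-fold. Tumour 3 lay above both, 1.31-fold to 1.48-fold over the lower tumour. Both further Kif2c probe sets above the floor had tumour 2 lower, with -0.60 and -0.78 (log2) between tumours 2 and 1. Of those of Kif11, a plain one (213, 139 and 508) had -0.55 and the other -0.01. All of these had tumour 3 highest. Kif4, a chromosome-bound motor of the central spindle, had 332, 283 and 271 and was the exception, highest in tumour 1.

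In the chromosomal passenger complex, which corrects wrong attachments and later guides cytokinesis, both measured subunits were lowest in tumour 2. Birc5, or survivin, had 1452, 851 and 1750. Tumours 1 and 3 were 1.75-fold and 1.95-fold above tumour 2 and within 1.12-fold of each other. Incenp, the scaffold that activates Aurora B, had 1023, 945 and 1156, a 1.20-fold range.

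Kinetochore genes differed among themselves. Tumour 3 was highest for 4 of the 6 past the floor. Cenpa, the histone variant that marks the centromere, had 1066, 732 and 1466, and Cenph, of the inner kinetochore, had 277, 225 and 451. Both ran from tumour 2 through tumour 1 to tumour 3, with tumour 3 above tumour 2 by 1.93-fold and 1.92-fold. The NDC80 complex, which grips microtubules, did not move as a unit. Its subunit Nuf2 had 101, 121 and 253, a 2.01-fold range with tumour 3 alone on the high side. Ndc80 had 256, 407 and 420, so that tumour 1 was the low tumour. Spc25 had 475, 474 and 479, a 1.07-fold range. Cenpf, a large protein of the outer kinetochore, had 841, 1171 and 782 and was lowest in tumour 3, 1.46-fold under tumour 2.

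Among genes of chromosome structure, tumour 3 was at the top for 5 of 6, and tumour 1, not tumour 2, was at the bottom for 4. The condensin ATPase Smc2 had 1111, 1587 and 2727 and was 2.16-fold higher in tumour 3 than in tumour 1. Its partner Smc4 had 1588, 2047 and 2507, a smaller 1.43-fold rise over tumour 1. The condensin I subunit Ncapd2 had 565, 568 and 1005, and Ncaph, the subunit that closes the condensin ring, had 812, 1270 and 1333. All 4 condensin genes were therefore highest in tumour 3, but tumour 2 lay with tumour 1 for Ncapd2 and with tumour 3 for Ncaph. A second probe set of Ncaph, with 636, 659 and 488, had tumour 3 lowest. Top2a, the topoisomerase that untangles sister chromatids, had 2092, 2201 and 3244. Mki67, which coats mitotic chromosomes and is the Ki-67 antigen of pathology, had 2450, 2815 and 2293 and was lowest in tumour 3, with a level of 11.33 ± 0.21 (SD, n = 3).

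By their brightest probe sets spindle assembly genes differed little. Their median range was 0.21 (log2) beside 0.66 for all genes, and 0 of 5 reached 2-fold (24.8% of all genes). Nusap1, a microtubule bundler, had 953, 932 and 1021, and Hmmr, which binds spindle poles, had 668, 735 and 722. Dlgap5, which stabilises kinetochore fibres, had 254, 192 and 247. Tpx2, the activator of Aurora A, had 640, 542 and 509, and Tacc3, which strengthens spindle microtubules, had 461, 423 and 460. None of these 5 differed by more than 1.33-fold by the brightest probe set. Further probe sets differed more between tumours 3 and 2. Their largest differences were 1.34 (log2) for Hmmr, -1.56 for Tacc3 and -0.97 for Tpx2, as given below.

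Of the 4 cytokinesis genes, tumour 3 was at the top for Racgap1 and Ect2 and tumour 2 for the others. Racgap1, the GTPase-activating subunit of centralspindlin, had 806, 547 and 1426, the widest range of any member at 2.48-fold from tumour 2 to tumour 3. Ect2, the exchange factor that Racgap1 recruits to switch on RhoA, had 336, 492 and 785, and was 2.10-fold higher in tumour 3 than in tumour 1. Anln, the scaffold of the contractile ring, had 997, 1617 and 1358, and Prc1, which bundles the central spindle, had 638, 808 and 701. In these last genes tumour 2 was the highest and tumour 1 the lowest by the brightest probe sets. A second probe set of Prc1, with 488, 533 and 553, had tumour 3 highest.

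Both transcription factors were highest in tumour 1 by their brightest probe sets (30.6% of all genes were), while 28 of the 47 members were highest in tumour 3 (30.2%). Mybl2, which encodes B-MYB, had 351, 130 and 176, and was 2.35-fold higher in tumour 1 than in tumour 2 and 1.79-fold higher than in tumour 3. Foxm1 had 325, 197 and 308, 1.61-fold higher in tumour 1 than in tumour 2 and 1.05-fold higher than in tumour 3. A further Foxm1 probe set (233, 150 and 210) also had tumour 1 highest, but another (189, 170 and 200) had tumour 3 highest. Tumour 2 was lowest for both genes by the brightest probe sets, as it was for 27 members. A second Mybl2 probe set, below the floor with 124, 117 and 57, had tumour 1 highest and tumour 3 lowest. Members with CHR in the promoter entry were a median 0.23 (log2) higher in tumour 3 than in tumour 2 (21 of 28 higher), and members without it 0.65 (12 of 12 higher). Of all genes 42.0% were higher. Members with CCAAT had 0.40 (21 of 27 higher) and those without it 0.39 (12 of 13). With an E2F site the median was 0.06 (5 of 7 higher) and without one 0.39 (28 of 33). The 40 genes in these splits are those past the floor with a promoter entry. Whether the motifs bear on the values was not tested.

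The type of probe set moved with the results for tumour 3. On this array family a letter before the ending of a probe set's ID marks one that matches several transcripts of a gene (a), several genes (s) or other sequences through some of its probes (x), and plain IDs have none. The brightest probe set was plain for 25 members past the floor and suffixed for 22. The plain members had a median difference of 0.33 (log2) between tumours 3 and 2 and -0.03 between tumours 3 and 1. The suffixed members had 0.58 and 0.45. Over all genes the brightest plain probe sets had -0.15 and -0.08 and the brightest suffixed ones -0.13 and -0.09. Tumour 3 was highest for 11 of 25 plain members (29.9% of all genes with a plain probe set) and for 17 of 22 suffixed members (30.7% of all with a suffixed one). Tumour 1 was also highest for 11 of the plain members (1433 of 4728 genes with a plain probe set). It was highest for 4 of the suffixed members (697 of 2223 genes).

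With suffixed probe sets left out altogether, 33 members passed the floor. Tumour 3 stayed above tumour 2, by a median of 0.33 beside -0.12 for all genes, and for 23 of 33 members (42.8% of all genes). The difference to tumour 1 did not keep its direction, with a median of -0.068 beside -0.08 for all genes, and 15 of 33 members higher in tumour 3 (44.4% of all genes). Tumour 3 was then highest for 14 of 33 (30.9% of all genes) and tumour 2 lowest for 17 of 33 (27.8%). Tumour 1 was highest for 15 of 33 (30.6% of all genes with every probe set kept), so tumour 3 no longer led. At least a 2-fold range was seen for 5 (25% of all genes). So the part of the pattern that rests on tumours 1 and 3 depended on the probe sets used, while the median excess of tumour 3 over tumour 2 did not change sign. In 10 members both a plain and a suffixed probe set passed the floor. The suffixed one gave the higher difference between tumours 3 and 1 in 9 of the 10, and in 60.4% of 1249 such genes on the whole array. For tumours 3 and 2 the counts were 5 of 10 and 56.2%.

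**Figure D4:**
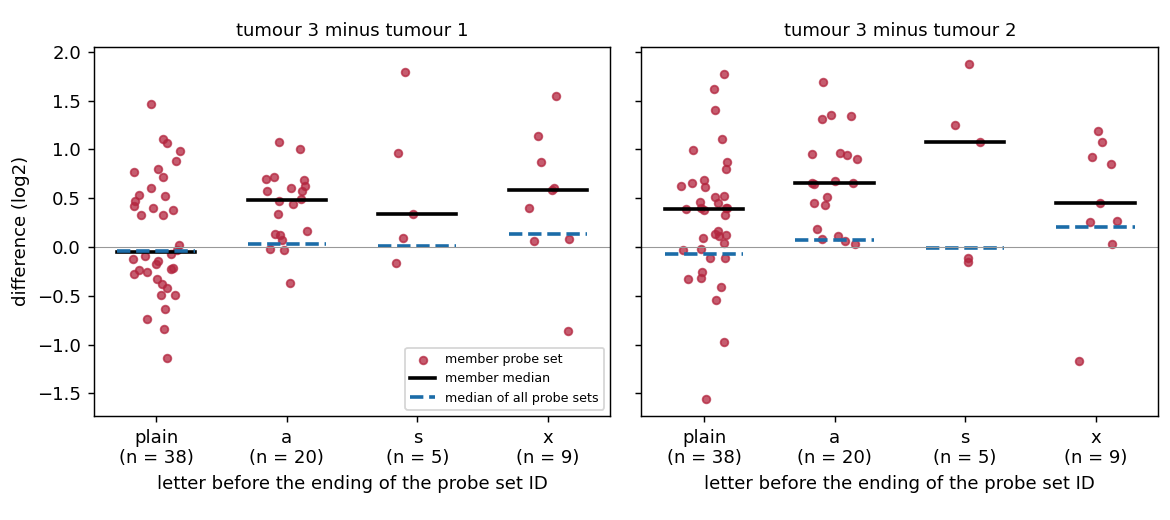
Log2 difference between tumours 3 and 1 (left) and 3 and 2 (right) for the 72 member probe sets above the floor (points), by the letter before the ending of the ID, with member medians (black) and medians of all probe sets of that type above the floor (dashed). Plain member probe sets have medians of -0.05 and 0.39 and those with the letter a 0.48 and 0.65, beside 0.03 and 0.07 for all probe sets with that letter.

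Several probe sets of the same gene mostly gave the same direction. There were 25 further probe sets above the floor, in 17 members. Of these, 22 had the sign of the brightest probe set in the comparison of tumours 3 and 1. The number was 20 for tumours 3 and 2, and 17 where tumour 2 was set against tumour 1. A plain second probe set of Cdc20, with 1029, 1083 and 2119, gave tumour 3 the same lead. A plain probe set of Kif2c, with 332, 218 and 623, showed a wider difference than the brightest. The further probe sets of Smc4 had 854, 723 and 2671, and 583, 437 and 897, both highest in tumour 3 with tumour 2 lowest, where the brightest had tumour 1 lowest. Hmmr was nearly flat by its brightest probe set, but 2 further ones, with 412, 436 and 678 and with 221, 135 and 397, had tumour 3 highest, by 0.65 and 1.34 (log2) over tumour 2. In other genes a further probe set put tumour 3 lower against tumour 1 than the brightest did. A plain probe set of Tacc3 had 280, 421 and 103, and another with the letter x had 359, 489 and 178. Both had tumour 2 highest and tumour 3 lowest, where the brightest Tacc3 probe set was nearly flat. Between tumours 3 and 2 they had -1.56 and -1.16 (log2), and the brightest had 0.18. A second probe set of Tpx2, with 280, 361 and 149, had tumour 3 lowest, as the brightest did. Its difference between tumours 3 and 1 was larger, at -0.74 (log2) beside -0.33. Between tumours 3 and 2 it had -0.97, with tumour 2 highest, and the brightest had -0.02. A plain probe set of Incenp (616, 397 and 535) had tumour 1 highest, where the brightest had tumour 3 highest. For Cdca5 both the brightest and a plain probe set (382, 304 and 259) had tumour 1 highest. Between tumours 3 and 2 the plain one had -0.11 (log2) and the brightest 0.06. Where the probes lie along each transcript was not analysed here.

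Control probe sets and markers of other cells also moved on the tumour 3 array. The control for the middle part of 18S ribosomal RNA had 9856, 9311 and 400, that for its 5′ part 5398, 4615 and 563 and that for its 3′ part 2697, 1833 and 7147. The 5′ and 3′ controls of Actb had 9279, 8168 and 7303, and 9646, 9859 and 9196. Those of Gapdh had 7471, 5862 and 10125, and 6752, 7102 and 8187, so that on the tumour 3 array the 5′ signal was lowest for Actb and highest for Gapdh. The keratins Krt8, with 5607, 5714 and 4770, and Krt18, with 6457, 6414 and 6145, and the adhesion protein Epcam, with 4156, 6060 and 6050, were well above the floor in every tumour. Other luminal epithelial markers differed between tumours, and not all in the same direction. Of the 9 luminal markers past the floor, 4 were lowest in tumour 3 (44.1% of all genes) and 2 highest there (30.2%). The adhesion gene Cdh1 had 1313, 1403 and 2793, highest in tumour 3. Cldn3, a tight junction gene, had 3832, 1408 and 2204, lowest in tumour 2. The tight junction gene Cldn4 had 1788, 669 and 111, an 11.7-fold range ending below the floor intensity in tumour 3, and the keratin Krt19 had 1590, 803 and 454. Elf3, an epithelial transcription factor, had 566, 598 and 593, the narrowest range of the 9 luminal markers past the floor. The hormone receptor genes Esr1 and Pgr, the other 2 of the 11, were below it. Wap itself was below the floor with 88, 19 and 29.

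Adipocyte markers had the largest of these differences that ran in the direction of the members in tumour 3. All 3 past the floor (Adipoq only through tumour 3) were highest there (30.2% of all genes). Fabp4 had 424, 304 and 2837, Car3 had 319, 550 and 2539 and Adipoq had 66, 94 and 678. Their ranges were 7.98-fold, 6.44-fold and 6.12-fold. The log2 levels of the 5 adipocyte markers on the array summed to 37.0, 36.7 and 46.2. Muscle markers were lowest in tumour 2 (27.1% of all genes), as were many members. Acta1, a skeletal muscle actin, had 125, 39 and 300 and myoglobin, Mb, had 258, 94 and 118, with a median of 1.14 between tumours 3 and 2 and -1.10 between tumours 2 and 1. Both passed the floor only through their highest tumour, and Ckm, which defines muscle, stayed below it with 50, 35 and 36. The 5 muscle markers summed to 35.2, 31.4 and 35.4. The milk genes did not share an order. Csn1s1 had 3106, 1700 and 4340, running from tumour 3 through tumour 1 to tumour 2, as 16 members did. Csn3 had 11104, 8964 and 10114, and Csn2 had 1158, 1757 and 1719, lowest in tumour 1. Lalba, with 437, 46 and 42, and Wap were below the floor and highest in tumour 1.

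Macrophage and stromal markers went the other way. All 11 macrophage markers on the array were lowest in tumour 3 (44.1% of all genes). They ran from C1qc with 3022, 2090 and 869 to Cd14 with 3251, 3307 and 3185, and their levels summed to 117, 116 and 106. Of 8 fibroblast markers 5 were lowest in tumour 3 (44.1% of all genes), 3 lowest in tumour 1 (28.8%) and 0 highest in tumour 3 (30.2%). Higher in tumour 3 than in tumour 2 were 0 of the 8 (42.0% of all genes). Lum, at 196, 729 and 289, and Dcn, at 772, 1029 and 831, had tumour 1 lowest. The fibroblast markers summed to 78.9, 81.0 and 75.8. The 3 endothelial markers past the floor were all lowest in tumour 3 (44.1% of all genes). Cdh5 with 165, 211 and 49 and Eng with 266, 288 and 189 were among them. The 7 endothelial markers on the array summed to 50.4, 52.2 and 48.4. None of 7 T and NK cell markers reached the floor, and Cd3e, which defines T cells, had 22, 21 and 24. The part of probe set type, RNA preparation or other cell types in the mitotic differences was not tested.

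Other genes of the cell cycle did not all share the order of the members. Their lists were taken whole, and each count is of genes past the floor. Of all genes past the floor, 30.2% were highest in tumour 3, 44.1% lowest in tumour 3, 27.1% lowest in tumour 2 and 28.8% lowest in tumour 1. All genes had a median of -0.14 between tumours 3 and 2 and 0.05 between tumours 2 and 1. Cyclins and regulators of Cdk1 lacked the members' excess in tumour 3, with 8 of 13 lowest there (44.1% of all genes). Their median difference between tumours 3 and 2 was -0.26, of the same sign as the -0.14 of all genes. Cdc25c, a phosphatase that activates Cdk1, had 258, 448 and 162 and the widest range of that list (2.24-fold). Pkmyt1, a kinase that inhibits Cdk1, had 350, 420 and 337 and the narrowest. Subunits and regulators of the anaphase promoting complex were lowest in tumour 2 in 8 of 12 cases, with a median of 0.27 between tumours 3 and 2 and -0.28 between tumours 2 and 1. Anapc13, a small subunit of that complex, had 405, 244 and 665 and Anapc7 764, 660 and 737.

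The 3 other condensin genes on the array were all highest in tumour 3 (30.2% of all genes), as were the 4 condensin members. Those 3 had medians of 0.63 between tumours 3 and 1 and 0.30 between tumours 3 and 2, beside 0.33 and 0.39 for all the members. Ncapg had 441, 529 and 732, and Ncaph2 had 918, 924 and 1160. Of 9 cohesin genes, tumour 3 was at the top for 5 (30.2% of all genes) and tumour 1 at the bottom for 6 (28.8%). Their medians were 0.36 between tumours 3 and 1 and 0.18 between tumours 3 and 2. The ring subunit Rad21 had 1222, 1764 and 4654, a 3.32-fold range, while the cohesin loader Nipbl had 247, 269 and 290. Other kinetochore and checkpoint genes were highest in tumour 3 in 10 of 20 cases (30.2% of all genes) and lowest there in 9 (44.1%). Their median was 0.20 between tumours 3 and 2. Ska1, which couples kinetochores to shrinking microtubules, had 204, 199 and 441, and Cenpn 517, 550 and 515. The remaining spindle motors and bundlers were highest in tumour 3 in 5 of 10 cases (30.2% of all genes), with a median of 0.16 between tumours 3 and 2. Spag5, or astrin, had 303, 323 and 779 and Aspm, a spindle pole protein, 571, 725 and 661.

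Centrosome duplication genes were highest in tumour 3 in 3 of 8 cases (30.2% of all genes), with a median of -0.23 between tumours 3 and 2 (-0.14 for all genes). Tubg1, the gamma-tubulin that seeds microtubules, had 474, 282 and 719 and Stil 223, 256 and 276. DNA replication genes, which act in the phase before, had a median of 0.12 between tumours 3 and 2 and 3 of 27 differed at least 2-fold (24.8% of all genes). Ccne2, a cyclin of S phase entry, had 126, 266 and 602 and Pola2, a subunit of DNA polymerase alpha, 338, 375 and 344. Of 9 genes of the DREAM complex and p21, 5 were highest in tumour 3 (30.2% of all genes). Their medians were 0.53 between tumours 3 and 1 and 0.34 between tumours 3 and 2, beside 0.33 and 0.39 for the members. The p21 gene Cdkn1a, an inhibitor of cyclin-dependent kinases, had 330, 1992 and 1085, with tumour 2 highest and tumour 1 lowest, and the MuvB subunit gene Lin37 had 184, 164 and 172. No test compared these lists with the members.

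**Figure D5:**
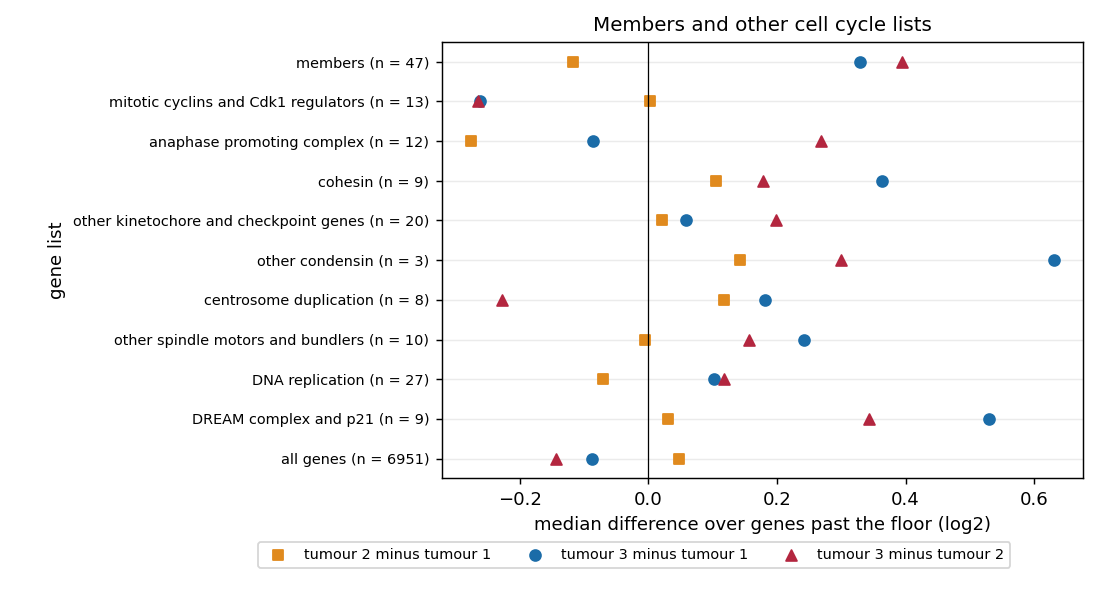
Median log2 difference between tumours (horizontal axis) over the genes past the floor in each list (vertical axis, with its number of genes), with squares for tumour 2 minus tumour 1, circles for tumour 3 minus tumour 1 and triangles for tumour 3 minus tumour 2. The members have medians of -0.12, 0.33 and 0.39, the cyclins and Cdk1 regulators have 0.00, -0.26 and -0.26, and all genes have 0.05, -0.09 and -0.14.

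The members are scattered over the genome, with at most 9 on a single chromosome (chromosome 2). Their neighbours on the whole did not share their differences, with exceptions on chromosome 4 and on other chromosomes. For each of the 47 members past the floor, the 5 nearest genes past the floor on either side in the RefSeq gene order were taken. The median of these neighbours' differences between tumours 3 and 2 was -0.16 for the typical member, beside 0.39 for the members themselves and -0.15 for the neighbours of all genes. Between tumours 3 and 1 the neighbours had -0.10, beside 0.33 for the members. All 4 members on chromosome 4 had neighbours higher in tumour 3. Against tumour 1 the neighbours' medians were 0.26 for Cdc20, 0.44 for Kif2c, 0.27 for Melk and 0.66 for Smc2, where the genes themselves had 1.14, 0.40, 0.77 and 1.11. Against tumour 2 the neighbours had 0.52, 0.21, 0.12 and 0.47. Chromosome 4 was not alone in this. Neighbours of Ndc80 on chromosome 17 had 0.31 against tumour 1 and 0.42 against tumour 2, where the gene had 0.61 and 0.12. Those of Pttg1 on chromosome 11 had 0.33 and 0.23, where the gene had 0.97 and 1.25. Those of Tacc3 on chromosome 5 had 0.21 and 0.46, where the gene had -0.03 and 0.18. Mad2l1 on chromosome 6 also had neighbours near its own value against tumour 1, at 0.43 beside 0.40, but not against tumour 2, at 0.081 beside 0.39. The highest neighbours' median against tumour 1 was that of Smc2. Ube2c on chromosome 2 had the lowest, -0.71 beside -0.50 for the gene itself. These genes were picked for their neighbours' values.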

How the data were processed

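Total RNA extracted with RNAzol was copied into cRNA labelled with biotin, per the labels' protocols, and read on 1-colour arrays of mouse probe sets. The authors deposited 1 intensity per probe set and tumour, whole numbers on what appears from the values to be a linear scale. Their summarisation, background correction and scaling are not given in the sources used here. Of 22690 probe sets, 64 controls were set aside. The platform annotation gave 1 gene for 20380 of the rest and several for 691, and 1555 were not listed. Array medians were 111, 120 and 114, and 2% trimmed means differed by up to 5.38%.

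An offset of 50 was added, log2 taken and arrays quantile normalized. A gene took its brightest probe set. Members, lists and rules were chosen with earlier results of these data known. All members were to be named, and in other lists the genes with the widest and narrowest range past the floor. Fixed tissue markers (Krt8, Krt18, Epcam, Wap and Csn2) were added. Esr1, Pgr, Krt19, Cdh1, Cldn3, Lalba, Car3, Ckm, Cd3e and the further probe sets described were picked after their values were seen. All 3 tumours form 1 group, so no test was run. The number of arrays limits precision. Promoter sequences are from RefSeq (GRCm38.p6). A planned protein motif search was not run because no protein sequences were used here. Normalization, offset, probe set choice, floor and left-out tumours were varied. The script was tested on simulated data. Python 3.11.15, numpy 2.4.6, pandas 2.3.3, scipy 1.17.1 and matplotlib 3.10.9 were used.

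Of the other cell type lists, basal and myoepithelial genes had 1 of 7 past the floor (Acta2, 1746, 1456 and 1215), and B and plasma cell genes 1 of 4 (Jchain, 177, 180 and 144).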

Additional observations from a re-analysis of the deposited data

How the results depend on the processing

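Of 97 values recomputed under other settings, 88 kept their direction and stayed close to the value reported, meaning within 1.5 times for a count and within 0.32 (log2, the members' median SD over tumours) for a median. Leaving out suffixed probe sets moved the most. It gave 5 members at least 2-fold apart, 14 highest in tumour 3, 17 lowest in tumour 2 and 8 at least 1.5-fold higher in tumour 3 than in tumour 2, all from 33 members past the floor in place of 47. It also reversed the median difference of tumour 3 from tumour 1, to -0.068, and the cause was not tested. With 1 tumour left out, the count at least 2-fold apart fell to between 1 (without tumour 3) and 4 (without tumour 1), since fewer tumours are spanned. Tumour 1 was highest for 17 members without tumour 2 and 31 without tumour 3. The median difference between tumours 3 and 2 ranged from 0.33 to 0.43 over its alternatives. With values as deposited, 4 members changed sign between tumours 2 and 1 (Kif11, Kif23, Kif2c and Ncapd2), 1 between tumours 3 and 1 (Spc25) and 2 between tumours 3 and 2 (Hmmr and Kif4). With array medians subtracted, Kif23, Mad2l1 and Top2a did so between tumours 2 and 1 and Kif4 between tumours 3 and 2. Keeping genes by their mean without the highest tumour was added after the data were seen and left 46 members, 27 of them highest in tumour 3. No paired analysis was possible because the samples form 1 group. Signals near the floor, as for Nuf2 and Cenpe, limit what can be read from small differences.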
